A study of Caenorhabditis elegans with 2 samples.

Results

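The 10 genes described here time larval development in the nematode Caenorhabditis elegans: lin-14, lin-28, lin-29, lin-41, lin-42, lin-46, lin-66, hbl-1, alg-1 and alg-2. They are 10 of 19985 protein-coding genes in the annotation. The list was chosen from earlier results of these same region lists, in which lin-42 and lin-28 stood out, so every count over the members is a description and carries no test. The assay was chromatin immunoprecipitation with sequencing (ChIP-seq), which enriches DNA bound by a protein. The protein was F13H6.1, the zinc finger product of bcl-11, fused at its C-terminal end to GFP-FLAG, and the antibody was against GFP. There is 1 group of 2 biological replicates: whole hermaphrodite late embryos of the transgenic strain OP471, genotype unc-119(tm4063) III with the insertion wgIs471, taken 5 hours after synchronization by egg bleaching. Both replicates carry the same unc-119 allele and the same insertion, and whole embryos mix all cell types. The lists hold no RNA levels, so the stage could not be checked against marker genes.

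Heterochronic genes set which cell divisions happen at which larval stage. In the early larva LIN-14, LIN-28 and HBL-1 hold early fates, and they are later silenced by microRNAs of the lin-4 and let-7 families, which the Argonaute proteins ALG-1 and ALG-2 carry. Late in larval life LIN-41 falls and the zinc finger factor LIN-29 turns on adult programmes, while LIN-42, the worm relative of the circadian protein Period, cycles with the moults.

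Each enriched region in the authors' lists has an interval, a summit base and a signal value. They include a pooled list of 21824 permissively called regions and a list of 1065 regions that passed an optimal threshold on the irreproducible discovery rate. The 1065 are called sites here, and they are also the 1065 pooled regions of highest signal. Of the 1065, 1013 had a summit within 100 bp in each replicate, so not every site is matched that closely in both. Rank 1 is the highest signal. The scale of the signal is not stated, so signals are compared only within a list. Replicate 1 has 19517 regions and replicate 2 has 21972. Sequencing depth is unknown from these lists. A region was assigned to a gene when its summit lay between 2000 bp upstream of the gene and its end, a stretch called the window below. All positions are 1-based on ce11 (WBcel235).

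Of the 10 genes, 6 had a site: lin-14, lin-28, lin-41, lin-42, lin-66 and alg-1. Over all protein-coding genes the share with a site was 5.82%. Because earlier results of these lists chose the members, the difference from 5.82% supports nothing by itself. The 6 genes held 12 sites, namely 5 at lin-42, 2 each at lin-14 and lin-66, and 1 each at lin-28, lin-41 and alg-1. At least 2 sites stood at 3 of the 10 genes, against 0.485% of protein-coding genes. The 2 at lin-66 overlap each other. None of the 12 summits lay in the window of another protein-coding gene. The genes lin-29, lin-46, hbl-1 and alg-2 had 0 sites.

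The genes differ in length, and long windows catch more summits. Windows of the members ran from 3.88 kb for lin-46 to 22.3 kb for lin-14, against a median of 4.03 kb over all protein-coding genes. In the class of 5 to 10 kb, 4 of 6 members had a site, and 8.09% of all genes of that class did. In the class of 15 kb or more it was 2 of 3 members (lin-14 and lin-42, not lin-29) and 17.4% of all genes. Only lin-46 had a window under 5 kb, with 0 sites, where 4.04% of genes had one. The members held 1.04 sites per 10 kb of window, and all protein-coding genes 0.125 per 10 kb. These classes were drawn up after the values were seen.

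Permissive regions were present at all 10 genes, and 55.8% of protein-coding genes had at least 1. Both regions counted for lin-46 also lie in windows of other protein-coding genes, as does 1 at lin-28. The members held 68 pooled regions, of which 12 were sites. That is 17.6% of the pooled regions at the members, against 4.88% of all pooled regions. Density was 5.90 pooled regions per 10 kb at the members and 2.28 per 10 kb over all protein-coding genes. Of the 68 regions, 46 overlapped a region in each replicate, 67.6%, against 48.5% of all 21824.

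**Figure D1:**
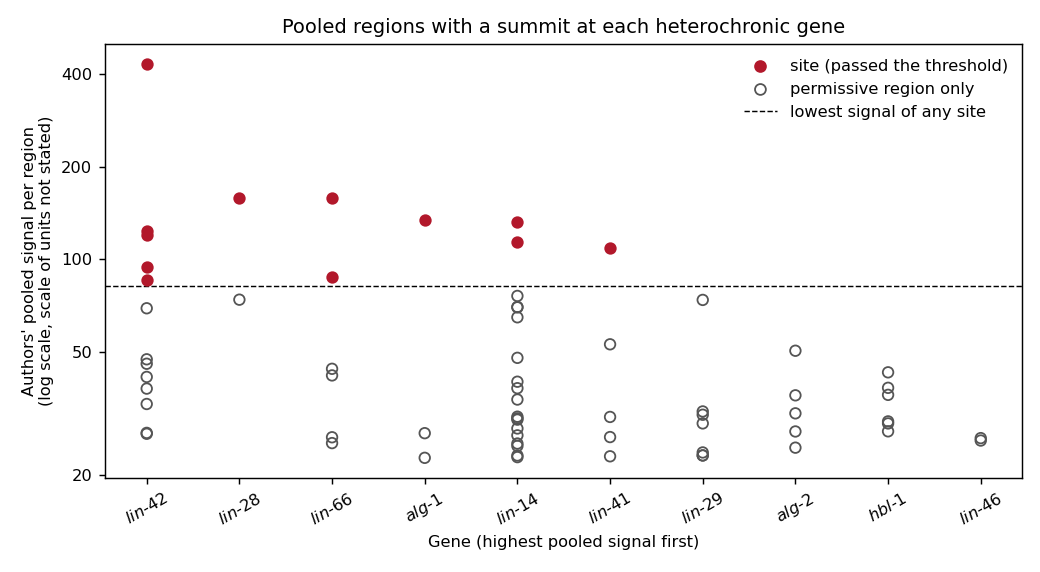
Signal of each of the 68 pooled regions by gene on a log scale, with sites filled, other permissive regions open, and the lowest signal of any site, 82.1, as a dashed line. One lin-42 site at 432 stands far above the other filled points, and lin-29, alg-2, hbl-1 and lin-46 have open points only.

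The sequences at the summits are shown in 2 sets. The first holds the word TGACCA, which mammalian BCL11A binds and which was therefore looked for on both strands within 50 bp of each summit. It occurred at 2 of the 12 sites, both at lin-42. Over all 1065 sites 3.76% held it, and over the 20759 pooled regions ranked below the sites 3.70% did, so the word was about as frequent without the threshold as with it. The letters are on the strand of the gene, 5′ to 3′, from the RefSeq sequence of WBcel235, with the word or its reverse complement in capitals.
lin-42 site of rank 11, chrII:1247034-1247063: gccctagagagcTGACCAgagaaagcgagg
lin-42 site of rank 449, chrII:1239767-1239796: acggcgcgagagTGGTCAgcagcgccatct

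At the site of rank 11 the word covers the summit base itself. At the site of rank 449 it lies 28 bp from the summit. Of the 1065 sites, 40 held the word within 50 bp of the summit. At 9 of them, 0.845% of all sites, its centre lay within 10 bp of the summit, a distance chosen after the values were seen. The share at that distance over the lower pooled regions is not given here.

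The second set shows the purine-rich word GAGAGA, noticed in these windows after the values were seen. It lay on either strand within 50 bp of the summit at 5 of the 12 sites, at 27.9% of all sites and at 11.02% of the lower pooled regions. The match nearest to the summit is in capitals, again on the strand of the gene. The word overlaps no match of TGACCA in the stretches printed.
lin-66 site of rank 225, chrIV:13887590-13887619: gagggtgagtgcGAGAGAgtgcggagacgc
lin-66 site of rank 941, chrIV:13887824-13887853: tttctctagctgTCTCTCtcacacgatgca
lin-14 site of rank 350, chrX:11467383-11467412: acttttctcagtTCTCTCcccgctgcgccc
lin-42 site of rank 449, chrII:1239752-1239781: tcagcagcgccaTCTCTCggagcaaaaagt
lin-42 site of rank 798, chrII:1242721-1242750: cttccgcgcgcaGAGAGAcgcgtccactgc

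The gap between this word and the summit was 1 bp at the stronger lin-66 site and between 18 and 43 bp at the other 4. In the 101 bp around the summit, G and C made up a median of 52.0% at the 12 sites and 50.5% at all sites. At 11 of the 12 the share was between 47.5% and 60.4%. The lin-42 site of rank 415 had 76.2%, the highest of all 1065 sites, and its summit is the capital letter here.
lin-42 site of rank 415, chrII:1238044-1238073: gagaaagggcaccgGcagtgggtagcgccg

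The gene lin-42 (WBGene00018572; chromosome II, 1233236 to 1252359, minus strand) had more sites than any other member. Its 5 sites put it among 5 protein-coding genes with at least 5, 0.025% of all, beside bcl-11 itself with 6, zfp-1 with 5 and 2 mitochondrial genes. The insertion of this strain targets bcl-11, and the part of DNA copy number in the counts at bcl-11 and the mitochondrial genes was not tested. For lin-42 itself the details are as follows. The strongest lin-42 site (1246852 to 1247270, summit 1247049) had rank 11 and a signal of 432 in the pooled list. In replicate 1 it ranked 10 with a signal of 216, and in replicate 2 it ranked 12, also at 216. The summit moved by 0 bp in replicate 1 and by 4 bp in replicate 2. It lies in the first intron of the transcripts F47F6.1d and F47F6.1f, 5310 bp past their start and 3014 bp before the start of F47F6.1b and F47F6.1c. The same base lies inside the noncoding gene F47F6.15. The same interval appears a further time in the pooled list with a summit at 1247253, rank 1542 and signal 69.4, which is not a site.

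The other 4 lin-42 sites lie further along the gene. The site of rank 415 (1237831 to 1238286, signal 124) is 1090 bp upstream of the start of F47F6.1a and inside introns of F47F6.1b, F47F6.1d and F47F6.1e. It ranked 443 in replicate 1 and 471 in replicate 2. The site of rank 449 (1239584 to 1240039, signal 120.3) lies in coding exon 5 of F47F6.1c and coding exon 6 of F47F6.1f, 289 bp past the start of F47F6.1e, in whose first intron it also falls. Its ranks were 698 in replicate 1 and 371 in replicate 2.

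The site of rank 798 (1242480 to 1242935, signal 94.3) is intronic, 1327 bp past the start of F47F6.1b, and ranked 1048 and 797 in replicates 1 and 2. The site of rank 969 (1237034 to 1237489, signal 85.9) is 293 bp upstream of F47F6.1a and within introns of longer transcripts. It ranked 810 in replicate 1 and 1641 in replicate 2, so replicate 2 alone would not have placed it among the 1065 highest. Upstream of the whole gene, at 671 bp before its first start, stood only a permissive region of rank 3968.

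**Figure D2:**
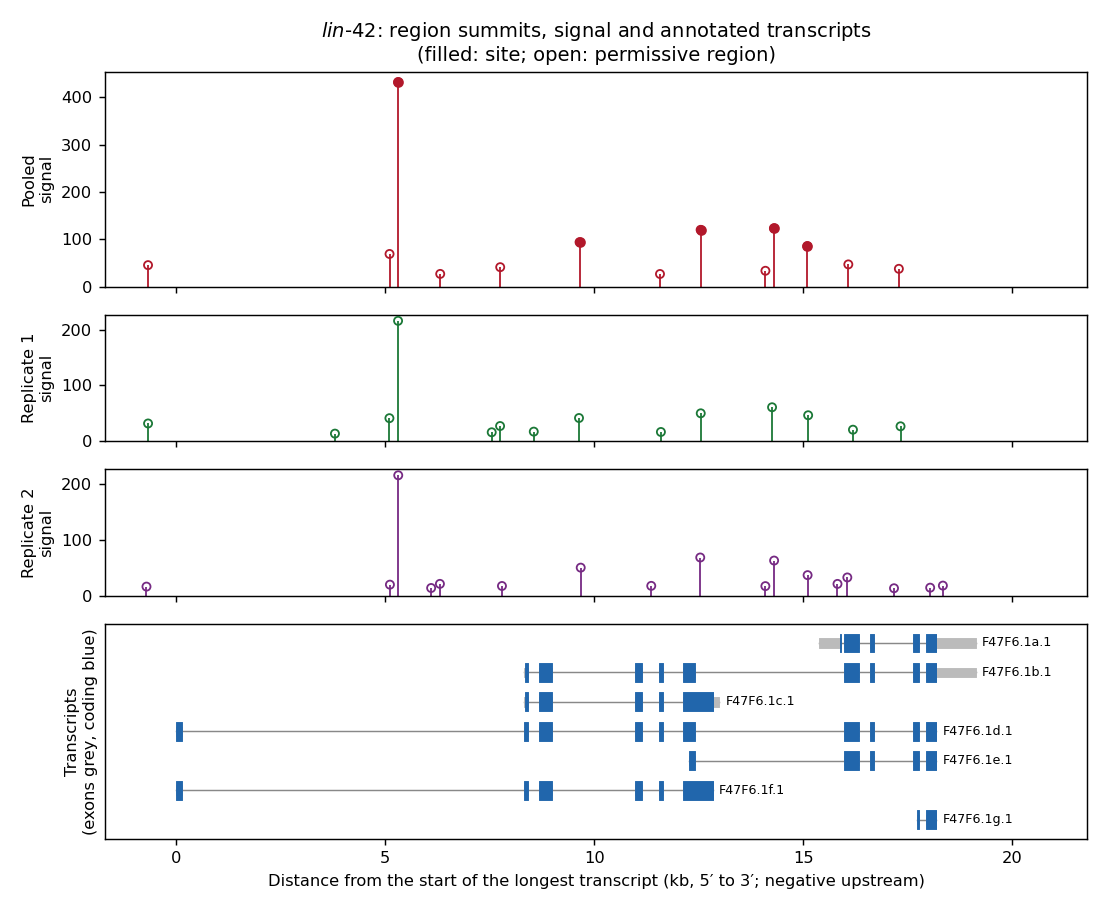
Signal of each region summit along lin-42 in the pooled list and in replicates 1 and 2 (upper panels, linear scale, each list on its own scale), over the 7 annotated transcripts, against the distance from the start of the longest transcript. The tallest stem in each list is at 5310 bp, in the long first intron of the transcripts ending in d and f, and the other 4 sites lie between 9651 and 15097 bp.

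The gene lin-28 (WBGene00003014; chromosome I, 8407630 to 8410804, minus strand) encodes the RNA-binding protein that blocks maturation of let-7. Its single site (8409672 to 8410127) had rank 224 and signal 159. Replicate 1 gave it rank 222 and signal 79.4, and replicate 2 rank 265 and signal 78.2, so both lists place it alike. The summit is 20 bp past the start of the shorter transcript F02E9.2b, in its 5′ UTR, and 904 bp into the longer F02E9.2a, in its first intron. A region 615 bp upstream of the gene, rank 1333 with signal 74.0, is not a site. There the replicates differed widely, with rank 10210 and signal 17.9 in replicate 1 against rank 646 and signal 55.1 in replicate 2.

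Of the genes that act with lin-28, lin-66 had sites and lin-46 had none. LIN-66 lowers LIN-28, and its gene (WBGene00001562; chromosome IV, 13888079 to 13893986, plus strand) had 2 overlapping sites in the stretch just upstream. The stronger (13887501 to 13887623, 123 bp wide) had rank 225 and signal 159, 471 bp before the first start, with rank 212 in replicate 1 and 206 in replicate 2. The weaker (13887590 to 13888045) had rank 941 and signal 87.5, 261 bp before that start. Both overlap the same strong replicate regions. Matched instead to the nearest replicate summit within 100 bp, the weaker site ranked 1800 in replicate 1 and 1949 in replicate 2. LIN-46 acts downstream of LIN-28. Its gene (WBGene00003031; chromosome V, 12968855 to 12970730, plus strand) had 2 weak regions, both upstream, of which the higher had rank 15672 and signal 26.3, 485 bp before the start. That summit also lies in the windows of R186.3 and R186.8, and the summit of the other region lies inside R186.3.

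Among the early-fate regulators lin-14 had sites and hbl-1 did not. The transcription factor gene lin-14 (WBGene00003003; chromosome X, 11465560 to 11485871, plus strand) held 19 pooled regions, the most of any member, spread over a window of 22.3 kb. Its stronger site (11467195 to 11467650) had rank 350 and signal 133, with rank 373 and signal 64.6 in replicate 1 and rank 362 and signal 69.1 in replicate 2. The summit lies in the first intron of T25C12.1a, 1863 bp past its start, inside the noncoding gene T25C12.7. The weaker (11474148 to 11474603) had rank 512 and signal 114, with rank 467 in replicate 1 and 587 in replicate 2, in the third intron and 5985 bp before the start of T25C12.1b. At the start of the gene itself, 145 bp upstream, a region of rank 1250 and signal 76.1 fell short of the threshold.

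The gene hbl-1 (WBGene00001824; chromosome X, 5822142 to 5827755, plus strand) encodes a Hunchback-like zinc finger factor. Its 6 pooled regions had signals from 27.7 to 43.0. The highest, of rank 4657, has its summit in a coding exon, with rank 6917 in replicate 1 and 3053 in replicate 2 by overlap. The summit of that replicate 2 region lies 181 bp away, and no replicate 2 summit lies within 100 bp.

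Of the late-acting pair, lin-41 had 1 site and lin-29 had 0. The gene lin-41 (WBGene00003026; chromosome I, 9334800 to 9342496, minus strand) encodes a TRIM-NHL protein that binds RNA and is a let-7 target. Its site (9343733 to 9344188) had rank 566 and signal 109 and lies between genes, 1465 bp upstream of the first start. Replicate 1 ranked it 979 with signal 43.0 and replicate 2 ranked it 352 with signal 70.0. Windows that reached 500 or 1000 bp upstream did not hold it. At the other end, 2 weak regions lay in the 3′ UTR, which is where let-7 acts on this gene, with pooled ranks of 10931 and 15377.

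The gene lin-29 (WBGene00003015; chromosome II, 11917642 to 11935343, minus strand) held 7 pooled regions over a window of 19.7 kb. The highest had rank 1345 and signal 73.9 and lies in an intron, 6214 bp past the start. It ranked 1110 in replicate 1 and 2311 in replicate 2 by overlap. The summit of that replicate 1 region lies more than 100 bp away, and the nearest replicate 1 summit ranked 6002.

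Of the paired Argonaute genes alg-1 had a site and alg-2 had none. The alg-1 gene (WBGene00000105; chromosome X, 13949110 to 13956261, plus strand) had 1 site (13950720 to 13951175) of rank 342 and signal 135. Replicate 1 gave it rank 277 and signal 72.1, and replicate 2 gave it rank 384 and signal 67.7. The summit is 314 bp upstream of the start of F48F7.1a.1, and the same base is in the 5′ UTR of F48F7.1a.3 and in the first intron of F48F7.1b. The alg-2 gene (WBGene00000106; chromosome II, 873212 to 879885, plus strand) had 5 pooled regions with signals from 24.5 to 50.5. Its highest, of rank 3118, lies in a coding exon and ranked 6373 in replicate 1 and 3240 in replicate 2 by overlap. The summit of that replicate 2 region lies 123 bp away, and no replicate 2 summit lies within 100 bp.

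**Figure D3:**
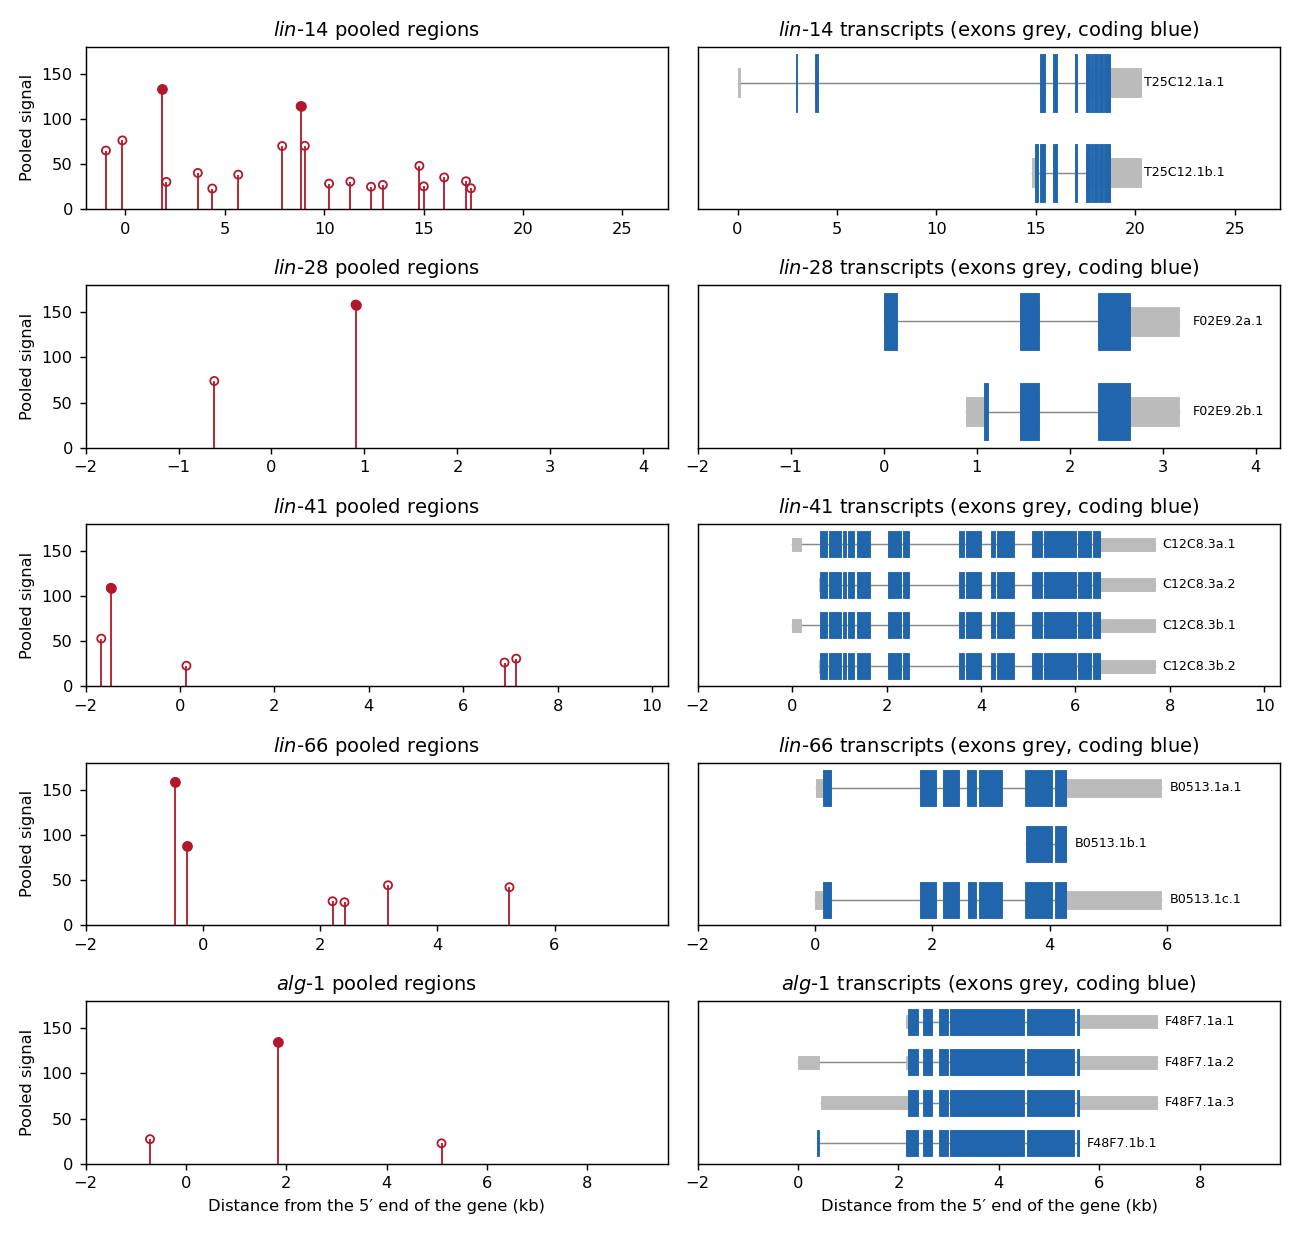
Signal of pooled region summits (left; sites filled) beside the annotated transcripts (right) for the other 5 genes with a site, against the distance from the 5′ end of each gene. The sites of lin-41 and lin-66 lie upstream of every start, while those of lin-14, lin-28 and alg-1 lie past the first start and before or near a later one.

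By position in the member's own transcripts, 6 of the 12 summits were in introns, 3 upstream, 2 in a 5′ UTR and 1 in a coding exon. An exon of any transcript took precedence over an intron in this count, and an intron over an upstream position. Each of the 6 intronic summits also lay upstream of the start of another transcript of the same gene. The intronic summits were all at lin-14 and lin-42, which have the longest windows of the members. Positions over all sites are not given here, so these shares have no background. Of the 68 pooled regions, 30 were in introns, 12 upstream, 16 in coding exons, 4 in a 5′ UTR and 6 in a 3′ UTR.

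The replicates gave the same 6 genes. With the 1065 highest regions of replicate 1 alone, 6 of the 10 members had a region, against 5.7% of protein-coding genes. With those of replicate 2 alone it was again 6, against 5.72%. All 12 sites had a summit within 100 bp in each replicate, as did 95.1% of all sites. Matched by overlap, 11 of the 12 ranked within 1065 in each replicate, against 69.6% of all sites. Matched by nearest summit it was 10 of the 12, against 63.2%. The threshold used both replicates, so these values restate the selection in part.

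**Figure D4:**
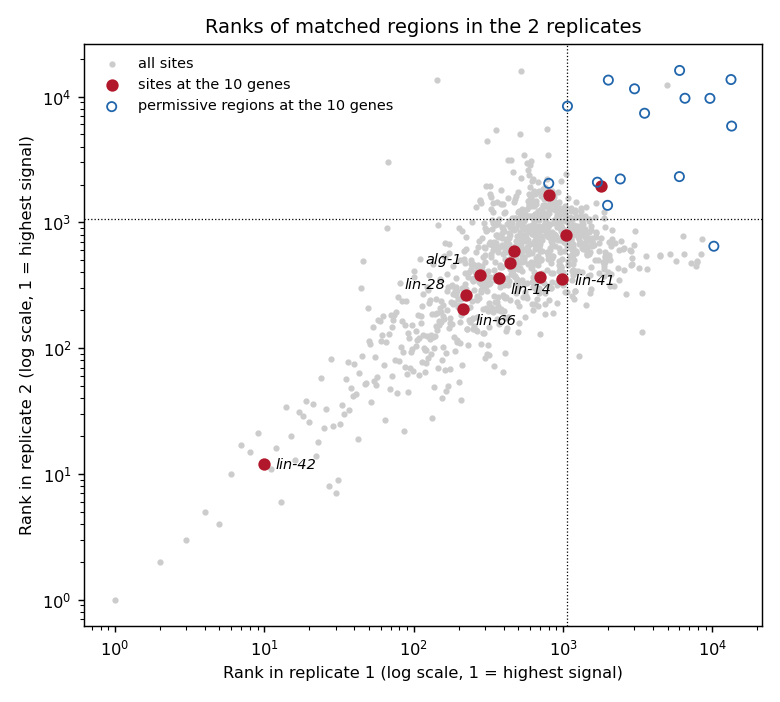
Rank in replicate 2 against rank in replicate 1, both on log scales, for regions with a summit within 100 bp in each replicate: 1013 of all sites in grey, the 12 member sites in red and 15 other member regions as open circles. Dotted lines mark rank 1065. The strongest lin-42 site sits at ranks 10 and 12, and the other 11 member sites lie among the main cloud of sites.

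These are the values next to the threshold. Of all sites the lowest signal was 82.13, and the next pooled region had 82.12. Among the members, just inside were the lin-42 site at 85.9 and the lin-66 site at 87.5. Just outside, and so not sites, were the permissive regions at lin-14 with 76.1, at lin-28 with 74.0 and at lin-29 with 73.9. The median signal of the 12 sites was 122, against 112 over all sites.

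Another 26 genes of the timing pathway were counted in the same windows, from a list drawn up with earlier results of these data known. Of its 20 protein-coding genes 10 had a site, against 5.82% of all protein-coding genes. Their windows ran from 4.67 kb for pup-2 to 33.0 kb for daf-12, against a median of 4.03 kb over all protein-coding genes. Of all genes with windows of 5 to 10 kb 8.09% had a site, and of those with 15 kb or more 17.4%. The strongest site in this list stood upstream of ain-1, which encodes a GW182-type partner of the Argonautes, with signal 283 and rank 42. Next came nhl-2, a TRIM-NHL cofactor of microRNAs, with signal 200.1 and rank 121, and the Pumilio-type gene puf-9, with signal 170.3 and rank 185, both at upstream sites. Whether any site of this list, coding or microRNA, also lies in another gene or its window is not given here.

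The sites of lower signal are given by what the genes encode. Transcription factor genes among them were myrf-1 (signal 153) and its paralogue myrf-2 (139), which promote lin-4 transcription, the nuclear receptor genes daf-12 (147) and nhr-23 (100.5), and blmp-1 (93.4). The exonuclease gene xrn-2, which degrades microRNAs, had a site of signal 133, and kin-20, the worm casein kinase related to fly Doubletime, one of signal 121. The microRNA-processing genes dcr-1, drsh-1 and pash-1 had no site, nor did lep-2, ain-2, dre-1, mab-10, nhr-25, nhr-85 and pup-2.

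The list also holds 5 microRNA genes, of which 1 had a site, against 9.58% of the 261 annotated microRNA genes. This was lin-4, named after its values were seen, with a site 360 bp upstream (chromosome II, 5901666 to 5902121) of rank 968 and signal 85.9. It ranked 1127 in replicate 1 and 1304 in replicate 2, below the 1065 highest of each. The strongest region at let-7 had rank 1512 and signal 70.1, and that at mir-241 rank 1660 and signal 66.7. At mir-84 the one region had rank 18614, and mir-48 and the long noncoding gene lep-5 had no pooled region.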

How the data were processed

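The 2 biological replicates of 1 group were analysed. Per the labels and the deposited file descriptions, the authors called regions permissively, once per replicate and once on pooled reads, with control reads as background, and kept pooled regions that passed an optimal threshold on the irreproducible discovery rate. No caller, version or threshold level is given in the sources used here. The deposited lists hold a signal per region and, by the narrowPeak format's definition, a −log10 q value. The control libraries were not used here, and whether a region marks binding of the protein was not tested. The ce10 lists were not used.

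Regions were ranked by signal and assigned by summit with the Ensembl release 115 annotation of WBcel235. A site was matched to the strongest overlapping replicate region. All sites at the 10 genes are named, and the strongest pooled region of each other member. Of the further pathway genes, those with a site are named, up to 10 by signal. MicroRNA genes were matched through the annotation's prefixed names, and let-7 by its RefSeq interval. The members, the further genes and the words were chosen with earlier results of these data known. No test was run. Window assignment was tested on simulated data. Python 3.11.15, pandas 2.3.3, numpy 2.4.6 and matplotlib 3.10.9 were used.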

Additional observations from a re-analysis of the deposited data

How the results depend on the processing

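The count of members with a site was between 5 and 6 in all alternatives: windows reaching 500, 1000 or 5000 bp upstream or 1000 bp past the end, overlap by 1 bp, the nearest coding start alone, the 532 sites of highest signal, each replicate alone, and ranking by −log10 q. The share of all protein-coding genes with a site changed as well. It was 3.95% with 500 bp upstream, 4.69% with 1000 bp and 8.70% with 5000 bp. With 1000 bp past the end it was 6.86%, and with the nearest coding start alone 3.90%. For the other settings that kept 1065 regions it lay between 5.7% and 6.4%. With 500 or 1000 bp upstream, and with the 532 highest sites, lin-41 dropped out. Ranking by −log10 q, which does not follow the signal in order, removed lin-41 and alg-1 and brought in lin-29. The count of sites at the members, 12, ranged from 8 to 13. At lin-42 it fell to 3 with the 532 highest sites, where the share of all protein-coding genes with a site was 3.03%. These fall by construction, since fewer sites enter. Elsewhere lin-42 held 4 or 5. Each replicate alone gave 11 or 12 regions at the members. Permissive regions were present at 9 members when only the nearest coding start counted, and otherwise at 10. Words within 100 bp of the summit gave the same 2 sites with TGACCA. At that reach 7.14% of all sites held the word, and 6.86% of the lower pooled regions. Depth per library and the scale of the signal are unknown, so no error could be set on a single rank beyond the 2 replicates. No paired analysis was possible because there is 1 group.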

Other observations

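Several of the sites overlap a further pooled region of lower rank, so a count of regions is a count of summits and not of separate stretches of DNA. At the 10 genes this held for 6 pairs, at lin-14, lin-41, lin-42 and lin-66, with summits between 201 and 211 bp apart. In 1 of the 6, at lin-66, the lower region is itself a site. Among the other timing genes ain-1 has such a pair of sites, with ranks 42 and 803 and summits 209 bp apart. With each overlapping pair of sites counted once, the 12 sites at the members lie on 11 stretches.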
